A study of Mus musculus with 6 samples.

Results

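Complement components and regulators were followed by RNA sequencing of SB28, a cell line from a mouse glioma. The 9 genes were C1ra, C1s1, C4b, C3, Cfb, Serping1, Cfi, Cd55 and Cd59a, taken from the deposited count table by exact symbol out of 55453 listed symbols. They were chosen with the knockout against wild-type contrast of these same libraries already known, so their counts, levels and fold changes are given as a description, without a test. The series holds 3 libraries titled PP2AcKO with the genotype label PP2A KO, called knockout here, and 3 titled PP2AcWT with the genotype label Wild Type. All 6 have SB28 as source, C57BL/6 as strain label and poly(A) RNA, and PP2Ac is the catalytic subunit of protein phosphatase 2A. The design text of the series describes SB28 tumours grown under the skin or in the brain of wild-type mice and of LysMcre PP2Ac fl/fl mice, in which Cre is driven by a myeloid promoter, so the sample labels place the deletion in SB28 and the design text places it in host myeloid cells. Whether the libraries were made from cultured cells or from tumours is not settled by the sources used here. The labels do not say how a knockout of SB28 was made, whether each group is 1 clone, or whether the libraries of a group came from separate cultures or tumours. If they did not, the p-values reflect library-to-library spread alone, and that spread may be technical.

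Complement is a cascade of secreted proteases and their targets that tags surfaces for uptake and can end in a membrane pore. In the classical pathway C1q recruits the proteases C1r and C1s, which cleave C4 and C2, and the products form an enzyme that cleaves C3. The alternative pathway amplifies the same step with factor B (Cfb) and factor D (Cfd), and inhibitors such as C1 inhibitor (Serping1), factor I (Cfi), CD55 and CD59 hold the cascade back. The liver makes most circulating complement, while in the brain glia and recruited myeloid cells are known local sources.

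Total counts ran from 38735864 to 49344079 per library. Of 14877 genes tested, 9525 (64%) passed an adjusted p of 0.05 in edgeR's quasi-likelihood test, with 31.9% of all tested genes higher and 32.1% lower in knockout, so a single call says little by itself. Ppp2ca, which encodes the catalytic alpha subunit of PP2A, stood at 244 to 274 CPM in wild-type libraries and at 187 to 217 CPM in knockout libraries. The groups did not overlap, and most of the message was still counted in knockout, so gene-level counts check the genotype labels only weakly. The glial and stem-like genes Sox2, Nes, Pdgfra and Vim were abundant, whereas Olig1, Olig2, Sox10 and Aqp4 had 0 counts in all 6 libraries and Gfap had 1 to 4. The glial and stem-like list summed to 5198 to 5419 CPM in wild-type libraries and 2094 to 2222 CPM in knockout libraries. Most of it was Vim (4678 to 4854 and 1807 to 1922 CPM), and Cspg4 stood at 7.68 to 10.2 and 0.102 to 0.157 CPM. Sox2, Nes, Aldh1l1 and S100b were also lower in every knockout library than in any wild-type library. Pdgfra and Slc1a3 went the other way without overlap. Pdgfra stood at 38.9 to 41.2 CPM in wild type and 47.7 to 50.7 CPM in knockout. Slc1a3 had 13, 9 and 12 counts in wild type, against 61, 41 and 48 in knockout. Of 14 macrophage and microglia markers 6 had 0 counts throughout, among them Adgre1, Tyrobp and Fcgr1, and the list summed to 3.78 to 4.15 CPM in wild-type libraries and 6.44 to 7.08 CPM in knockout libraries, mostly from Cd68 and Mrc1. Of 7 neutrophil markers S100a9, Csf3r and Mpo had 0 counts, and the list summed to 0.0454 to 0.137 and 3.36 to 4.01 CPM, nearly all of it S100a8. T, B and NK cell markers summed to at most 0.128 CPM, and of 7 endothelial markers Cdh5 alone had 16772 to 20190 counts per library, with overlapping groups in CPM, while groups did not overlap for Kdr (1.28 to 1.93 CPM in wild type and 7.36 to 8.16 in knockout), Vwf (0.522 to 0.725 and 5.27 to 6.00) and Tek (1.11 to 1.64 and 0.268 to 0.336). The hepatocyte markers Ttr, Serpina1a and Tat had 0 counts, and their list of 7 summed to 2.09 to 2.47 and 1.10 to 1.54 CPM, nearly all from Apoa2. The part of these lists in the results was not tested. In bulk RNA, fewer cells of a type and less RNA per cell cannot be told apart. Levels are in CPM, the usual read count scaled to a common library size, here with TMM factors, and differences are log2 of knockout over wild type.

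In knockout libraries C1ra, C1s1, C4b and above all C3 were present at higher levels than in wild type, while the genes of the fluid and membrane inhibitors in the set were low or barely detected in both groups. Of the 9 genes, 5 passed the filter on low counts and 4 (Cfb, Cfi, Cd55 and Cd59a) did not. C1ra, C1s1, C4b and C3 had no overlap between the groups, all with knockout higher, a pattern seen in 33.9% of tested genes. Cd59a, which did not pass the filter, had no overlap with knockout lower, a pattern seen in 5122 of 14877 tested genes. C3 and C4b passed the filter only through the knockout libraries, so a difference in them was built into passing it.

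**Figure D1:**
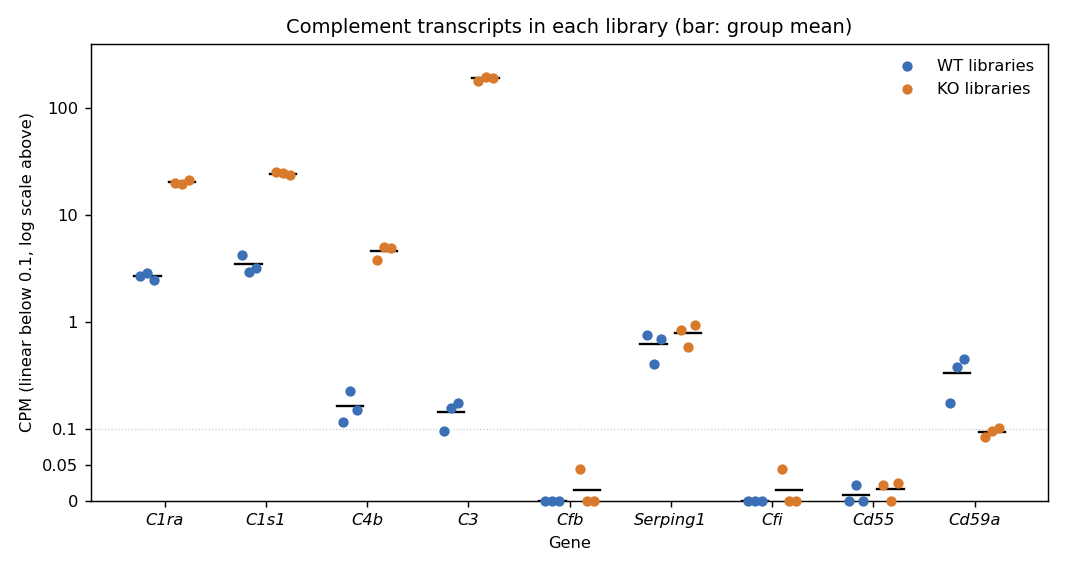
CPM of the 9 genes (y axis, linear below 0.1 and logarithmic above) in each of the 3 wild-type (WT) and 3 knockout (KO) libraries, with a bar at each group mean. C3 sits between 0.0979 and 0.176 CPM in the wild-type and between 180.0 and 197.6 CPM in the knockout libraries, while Cfb, Cfi and Cd55 lie at or near 0 in every library.

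C1ra encodes C1r, the protease that activates itself within the C1 complex and then cleaves C1s. It had 140, 127 and 98 counts in wild type 1, 2 and 3, against 896, 803 and 847 in knockout 1, 2 and 3. These correspond to 2.74, 2.88 and 2.47 CPM against 20.1, 19.6 and 21.6 CPM. The lowest knockout library lay well above the highest wild-type library, and the libraries within each group were close together. Mean levels of 2.70 ± 0.21 and 20.4 ± 1.07 CPM (SD, n = 3) differed by 2.92 on the log2 scale (SE 0.10), or 7.56-fold.

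C1s1 encodes C1s, which cleaves C4 and C2. It was counted 217, 131 and 129 times in the wild-type libraries and 1127, 1011 and 938 times in the knockout libraries. In CPM this was 4.25, 2.97 and 3.25 against 25.3, 24.7 and 24.0. Wild type 1 was the highest of its group, and the groups stood far apart. Mean levels of 3.49 ± 0.673 and 24.6 ± 0.645 CPM (SD, n = 3) differed by 2.81 on the log2 scale (SE 0.13), or 7.02-fold. C1ra (chromosome 6, 124512405 to 124523443, plus strand, GRCm38) and C1s1 (chromosome 6, 124530345 to 124542359, minus strand) face each other tail to tail across 6901 bases.

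The subunits C1r and C1s act together, and the levels of their messages were compared within each library. Per kilobase of exon, C1s1 stood at 1.48, 0.983 and 1.25 times the level of C1ra in wild type 1, 2 and 3 and at 1.20, 1.20 and 1.06 times in knockout 1, 2 and 3. The mean ratio was 1.24 ± 0.247 in wild type and 1.15 ± 0.083 in knockout (SD, n = 3), and the groups overlapped. These ratios use all exon bases, including the sequence shared with other genes that is described below. C1qa, C1qb and C1qc, which encode the recognition subunit that C1r and C1s attach to, had 0 counts in all 6 libraries, where 3 counts would correspond to 0.0587 to 0.0766 CPM.

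Part of both genes cannot be counted apart from neighbouring copies. In the annotated transcripts, 35.9% of the 100-base stretches of C1ra and 50.8% of its 50-base stretches also occur in another gene, mostly C1rb. For C1s1 the shares were 17.4% and 35.1%, the latter mostly with C1s2. The copies themselves were almost silent where their own sequence allows counting. C1rb, with 42.7% of its 100-base stretches shared, had 2 counts in 6 libraries, and C1s2, with 8.78% shared, had 10 in wild type and 12 in knockout. Reads that match both copies may have been dropped or split, so the levels of C1ra and C1s1 may be understated. In addition, 18.4% of the exon bases of C1s1 lie under an antisense gene that had 0 counts.

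**Figure D2:**
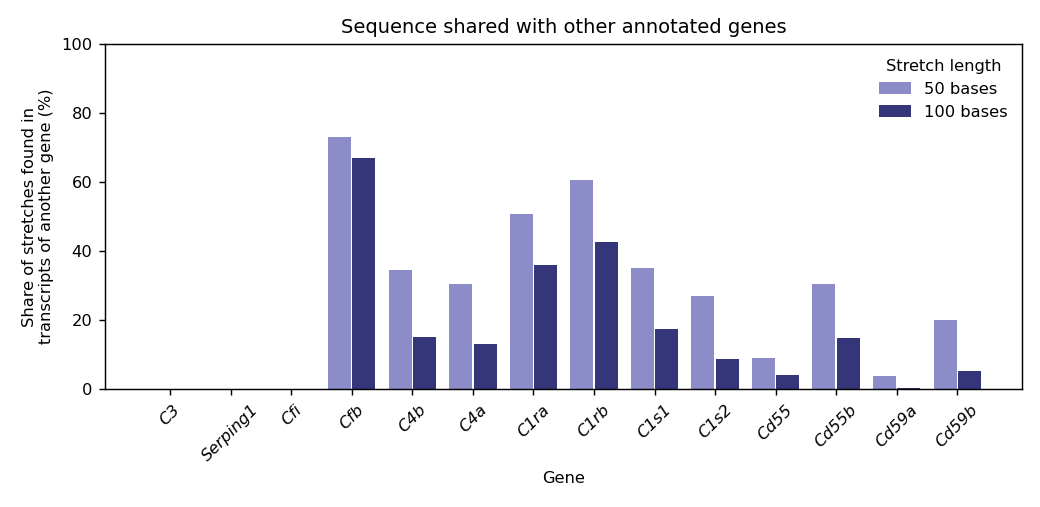
Share of all 50-base and 100-base stretches of each gene's annotated transcripts that also occur, on either strand, in transcripts of another gene (y axis, percent). C3, Serping1 and Cfi share none, Cfb shares 66.9% at 100 bases with an overlapping readthrough gene, and C1ra shares 35.9%.

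The sequences near the starts of the protease genes are shown because C1ra can be set beside its nearly silent copy. In RefSeq windows (GRCm38.p6), C1ra and C1rb carry the same 25 bases near their RefSeq starts, with 0 differences, although only C1ra yielded more than a few counts. The capitals mark a match to the C/EBP pattern TTGCNNAA (on the other strand) and one to the STAT pattern TTCNNNGAA. In C1ra the stretch begins 17 bases into the RefSeq transcript and lies at chr6:124512637-124512661, and in C1rb it begins 135 bases before the RefSeq start and lies at chr6:124570295-124570319, both on the plus strand. The GENCODE models start at 124512405 for C1ra, 216 bases before its RefSeq start, and at 124570294 for C1rb. By those models the stretch lies inside both genes. The search for this pair of matches also covered the 50 bases after the RefSeq start, and its share of all windows was not computed.
C1ra: TTATGCAAatgcttcaTTCCCTGAA
C1rb: TTATGCAAatgcttcaTTCCCTGAA

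C1s1 has 2 RefSeq windows. The 250 bases before the first start (chr6:124542360-124542609, minus strand) held 1 match to the same C/EBP pattern, in capitals, 242 to 235 bases before the start, and none to the other patterns searched. The window before the second start (chr6:124542322-124542571) ends short of that match and held none of the patterns.
C1s1: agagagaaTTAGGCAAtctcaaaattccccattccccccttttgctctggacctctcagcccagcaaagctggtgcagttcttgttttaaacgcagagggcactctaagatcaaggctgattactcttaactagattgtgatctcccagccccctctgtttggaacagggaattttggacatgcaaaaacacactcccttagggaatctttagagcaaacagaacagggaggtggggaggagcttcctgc

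C4b encodes complement C4, the substrate of C1s. It had 6, 10 and 6 counts in wild type 1, 2 and 3, against 172, 208 and 196 in knockout 1, 2 and 3, or 0.117, 0.227 and 0.151 CPM against 3.85, 5.08 and 5.01 CPM. Wild type was near the limit of counting and every knockout library was far above it. Mean levels of 0.165 ± 0.056 and 4.65 ± 0.687 CPM (SD, n = 3) differed by 4.80 on the log2 scale (SE 0.24), or 27.9-fold. C4b (chromosome 17, 34728380 to 34743882, minus strand) lies 65209 bases from its copy C4a, with which it shares 15.2% of its 100-base stretches.

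The copy showed another pattern. C4a had 44, 44 and 37 counts in wild type, against 35, 55 and 40 in knockout, so the groups overlapped, and its log2 fold change was 0.17 (SE 0.23, edgeR adjusted p = 0.536). In wild type C4a therefore had the higher level per kilobase (0.150 against 0.029 CPM per kilobase), and in knockout C4b did (0.816 against 0.169). C2, which encodes the partner that C4 brings to the convertase, had 22, 26 and 21 counts in wild type, against 6, 14 and 13 in knockout, a log2 fold change of -0.94 (SE 0.35, edgeR adjusted p = 0.0416). That call was fragile. The edgeR adjusted p was 0.122 without wild type 2, 0.0908 without wild type 3, 0.136 without knockout 1, 0.0512 without knockout 3 and 0.0878 without both libraries numbered 1, and DESeq2 gave an adjusted p of 0.0672, within a range of 0.0196 to 0.136 over its 12 alternatives. Exons of other genes cover 46.9% of the exon bases of C2, and how reads there were counted is not given in the sources used here.

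C3 encodes the protein on which all pathways of complement converge. It had 5, 7 and 7 counts in wild type 1, 2 and 3, against 8031, 8096 and 7595 in knockout 1, 2 and 3, or 0.0979, 0.159 and 0.176 CPM against 180.0, 197.6 and 194.1 CPM. The gene was close to silent in all wild-type libraries and uniformly high in all knockout libraries. The log2 fold change was 10.37 (SE 0.14), and the ratio of summed scaled counts was 1350 with a 95% counting interval of 864 to 2243. C3 (chromosome 17, 57203970 to 57228136, minus strand) shares no 50-base stretch with another annotated transcript and overlaps no other exon. Per kilobase of exon, 1308 of 14769 tested genes with a known length stood above it in knockout and 14520 in wild type.

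The 250 bases before the C3 start (chr17:57228137-57228386, minus strand, GRCm38.p6, RefSeq) are shown because C3 had the highest fold change and level of the set in knockout. They held 1 match to the C/EBP pattern TTGCNNAA, in capitals, 45 to 38 bases before the start.
C3: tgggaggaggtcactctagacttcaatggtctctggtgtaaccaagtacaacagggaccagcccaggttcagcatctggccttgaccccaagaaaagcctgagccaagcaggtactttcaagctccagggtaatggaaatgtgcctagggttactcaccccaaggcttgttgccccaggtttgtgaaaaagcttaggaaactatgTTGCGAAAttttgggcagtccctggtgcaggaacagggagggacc

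That pattern was present in 9.56% of 32851 windows of 250 bases before RefSeq starts. The other patterns searched on both strands were TTCNNNGAA (STAT, 7.02% of windows), GAAANNGAA (ISRE core, 7.13%), TGANTCA (AP-1, 6.75%) and the kappaB consensus (3.9%). The 250 bases before the C3 start held none of these, and of the 5 genes of the set with a window, Cd59a held an ISRE core match and C1ra and Cd55 no match. A match is a string of letters and was not tested as a binding site.

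Factor B and factor D amplify C3 cleavage in the alternative pathway. Cfb had 2 counts in knockout 1 and 0 in the other libraries. However, exons of a readthrough gene, Gm20547, which itself had no count in any library, cover 79.5% of the exon bases of Cfb, and counting programs commonly discard reads that lie in more than 1 gene. If so, the count covers 20.5% of the Cfb exon bases and is no measure of the gene as a whole. Cfd had 0 counts in all libraries. Cfp, which encodes properdin, a stabiliser of the alternative convertase, averaged 10.1 ± 1.16 CPM in wild-type libraries and 11.2 ± 1.22 CPM in knockout libraries (log2 fold change 0.16, SE 0.12, edgeR adjusted p = 0.278).

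Serping1 encodes C1 inhibitor, which inactivates C1r and C1s. It had 39, 18 and 28 counts in wild type 1, 2 and 3, against 38, 24 and 37 in knockout 1, 2 and 3, or 0.764, 0.408 and 0.705 CPM against 0.852, 0.586 and 0.945 CPM. The groups overlapped, and in both the library numbered 2 was lowest. The log2 fold change was 0.34 (SE 0.29), and the ratio of summed counts was 1.26 with a 95% counting interval of 0.933 to 1.70. Per kilobase, C1ra stood at 2.80, 5.50 and 2.73 times the level of Serping1 in wild type and at 18.4, 26.1 and 17.9 times in knockout. The balance of protease to inhibitor message was thus higher in every knockout library than in any wild-type library.

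The other inhibitors of the set were at the edge of detection. Cfi, which encodes the protease that inactivates C3b and C4b, had 2 counts in knockout 1 and 0 elsewhere. Cd55, the gene of decay accelerating factor, had 1 count in wild type 2, knockout 1 and knockout 3 and 0 in the rest. No fold is given for Cfb, Cfi or Cd55, because both groups were at or below 3 counts. Cd59a encodes an inhibitor of the membrane pore and had 9, 17 and 18 counts in wild type 1, 2 and 3 and 4 in each knockout library. Its groups did not overlap, as in 5122 of 14877 tested genes with knockout lower. The summed scaled count of Cd59a was 3.39-fold lower in knockout, with a 95% counting interval of 1.76 to 7.05. Its neighbour and copy Cd59b had 24 counts over the wild-type and 17 over the knockout libraries, and its groups overlapped. The intervals and floors given here reflect counting error alone, since they pool the counts of the 3 libraries of a group and leave out spread between libraries. Libraries within a group differed beyond sampling noise (chi-square per degree of freedom 3.41 to 48.4), so the intervals may be too narrow. The counts also carry no molecular identifiers.

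The order of levels per kilobase changed between the groups. In wild type, C1s1 (1.12 ± 0.215 CPM per kilobase) and C1ra (0.905 ± 0.0705) came first and overlapped, followed by Serping1 (0.269 ± 0.082) and Cd59a (0.187 ± 0.0797), which also overlapped, and then by C4b (0.029 ± 0.00983) and C3 (0.0281 ± 0.008), which overlapped as well. In knockout, C3 came first at 37.0 ± 1.81 CPM per kilobase, ahead of C1s1 (7.87 ± 0.206) and C1ra (6.86 ± 0.358), and these did not overlap with each other or with C3. The lengths include sequence shared with other genes, 35.9% of the 100-base stretches of C1ra and 17.4% of those of C1s1. If reads there were dropped, C1ra is understated more than C1s1, so the order of C1s1 and C1ra is not settled. C4b (0.816 ± 0.121), Serping1 (0.342 ± 0.0802) and Cd59a (0.0533 ± 0.00351) followed without overlap (all SD, n = 3). The C3 to C4b ratio per kilobase was 0.923, 0.775 and 1.29 in wild type, against 51.7, 43.1 and 42.9 in knockout. The wild-type ratios rest on 5 to 7 counts of C3 and 6 to 10 of C4b per library, and C4a is not part of them.

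**Figure D3:**
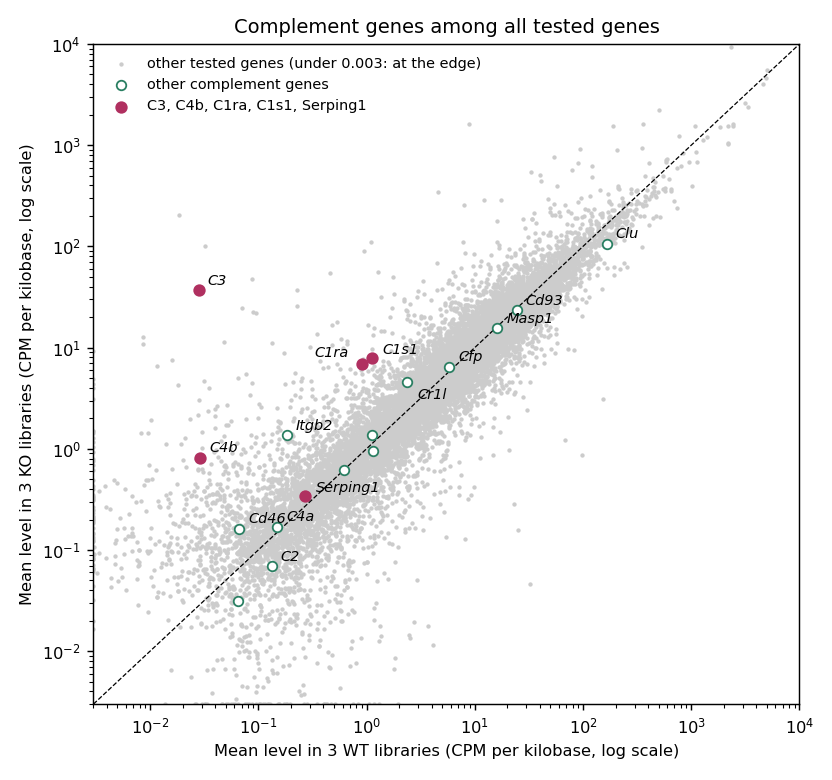
Mean CPM per kilobase of exon in 3 wild-type libraries (x axis) against 3 knockout libraries (y axis), both logarithmic, for all tested genes, with tested complement genes marked and the dashed line at equal levels. C3 lies at 0.0281 and 37.0, far above the line, whereas Clu, Cd93, Masp1 and Cfp lie near it or below it among the bulk of genes.

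Among the other 52 genes of a wider complement list (activation pathways, pore, regulators and receptors), 13 passed the filter and 17 had 0 counts in all libraries. Of these 13, 3 were higher (Itgb2, Cd46 and Cr1l), 3 lower (Clu, Cr2 and C2) and 7 not past the threshold, set beside 31.9% higher and 32.1% lower of all tested genes. The median log2 fold change was 0.01 for the 13 genes and -0.01 for all tested genes. Against a fold of 1.5, edgeR called 3 of the 13 higher and none lower, beside 13.5% higher and 13.2% lower of all genes. The single gene with an unadjusted p under 0.05 on the lower side of that test was Cr2, and DESeq2, run against no change, called 2 of the 13 lower.

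The most abundant regulators of this list, Cr1l and Clu, moved in opposite directions. Cr1l encodes Crry, a rodent membrane regulator that blocks the C3 convertases. Its level was 25.0, 23.3 and 24.4 CPM in the wild-type and 49.1, 45.5 and 46.1 CPM in the knockout libraries, and it rose 1.93-fold (log2 fold change 0.95, SE 0.07, edgeR adjusted p = 5.15e-06). Cd46, a membrane cofactor for factor I that in mice is known mainly from the testis, was at 0.510 ± 0.0273 CPM in wild-type libraries and rose to 1.23 ± 0.292 CPM (log2 fold change 1.27, SE 0.23, edgeR adjusted p = 0.00129). Exons of an antisense RNA, with 35 counts in wild type and 75 in knockout, cover 14.2% of the Cd46 exon bases, and on those bases the reads cannot be told apart if strand was not used. Clu encodes clusterin, a chaperone that also restrains assembly of the membrane pore. Its level was 547, 568 and 593 CPM in the wild-type and 353, 370 and 376 CPM in the knockout libraries, and it fell by 0.64 on the log2 scale (SE 0.06, edgeR adjusted p = 2.85e-05). Susd4, a membrane inhibitor, had a log2 fold change of 0.01 (SE 0.16, edgeR adjusted p = 0.954).

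Clu dominated the message of the whole list in both groups. It made up 75.0% ± 0.961 of the summed CPM per kilobase of the 61 genes in wild type and 49.6% ± 0.834 in knockout (SD, n = 3). C3 went from 0.0126% ± 0.00331 to 17.2% ± 0.577 of that sum, and the 9 genes together from 1.15% ± 0.114 to 24.7% ± 0.433. The sum itself was 221 ± 6.29 CPM per kilobase in wild type and 215 ± 3.55 in knockout. The libraries of the groups overlapped in this sum and did not overlap in the share of C3 or of Clu.

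Among receptors, Itgb2, the beta chain shared by complement receptors 3 and 4, rose from 21, 33 and 21 counts to 169, 185 and 165 (log2 fold change 2.89, SE 0.20, edgeR adjusted p = 3.23e-06). The alpha chains that complete those receptors were at 0 to 2 counts in each library (Itgam and Itgax), although another gene covers 68.7% of the Itgam exon bases. The summed macrophage and microglia markers moved in the same direction as Itgb2, with the values given above, mostly through Cd68 and Mrc1. Ptprc went the other way, with 11, 10 and 10 counts in wild type, against 7, 2 and 2 in knockout. Csf1r had 12, 8 and 3 counts in wild type, against 4, 4 and 2 in knockout, and its groups overlapped in CPM. The part of these markers in the Itgb2 counts was not tested. Cr2, the receptor for C3 fragments on B cells, fell by 1.05 on the log2 scale (SE 0.30, edgeR adjusted p = 0.0135), with 32, 20 and 20 counts in wild type, against 15, 8 and 9 in knockout. Its call was lost without wild type 1 (edgeR adjusted p = 0.0531) and without knockout 2 (edgeR adjusted p = 0.0547), within a range of 0.0098 to 0.0547 over its 12 alternatives. C3ar1, the receptor for the C3a fragment, averaged 4.80 ± 0.554 CPM in wild-type libraries and 5.95 ± 0.903 CPM in knockout libraries (log2 fold change 0.31, SE 0.14, edgeR adjusted p = 0.0828). With the replicate number as a block its edgeR adjusted p was 0.00755, within a range of 0.00755 to 0.245 over 12 alternatives. Cd93 differed by -0.05 on the log2 scale (SE 0.07, edgeR adjusted p = 0.548).

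**Figure D4:**
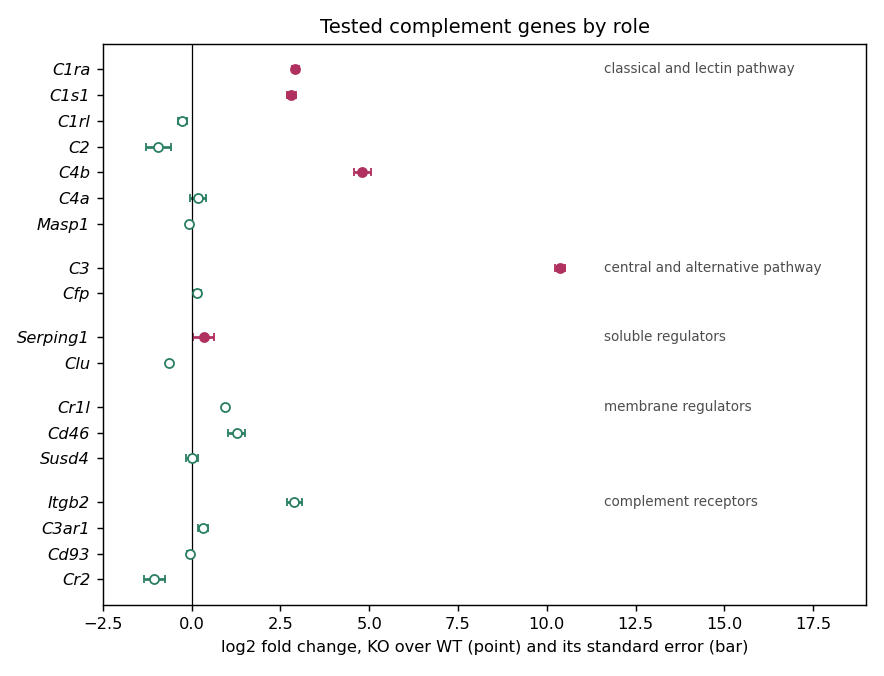
Log2 fold change, knockout over wild type, with its standard error for the 18 tested complement genes, grouped by role. Filled points are genes chosen with this contrast known (C1ra, C1s1, C4b, C3 and Serping1), open points the other 13 genes, of which Itgb2 lies at 2.89 and the rest between -1.05 and 1.27.

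In the lectin pathway Masp1, the protease related to C1r, was abundant and nearly level at 158.6 ± 3.07 and 152.0 ± 3.02 CPM (log2 fold change -0.06, SE 0.06, edgeR adjusted p = 0.389). C1rl, a C1r-like gene beside C1ra, had a log2 fold change of -0.27 (SE 0.13, edgeR adjusted p = 0.0901). Upper-quartile scaling, which shifted the log2 fold changes by a median of -0.0645, gave C1rl an adjusted p of 0.0422, within a range of 0.0422 to 0.279 over 12 alternatives. The recognition genes Mbl1, Mbl2 and Fcnb had 0 counts. Fcna, which encodes the recognition protein ficolin A, did not pass the filter, with 8, 3 and 2 counts in wild type and 20, 10 and 8 in knockout. Its CPM groups did not overlap, with knockout higher, and the ratio of the summed counts per library size was 3.16 (exact 95% interval 1.65 to 6.47, counting error only). None of the 7 terminal pathway genes passed the filter. C6, C8a and C8b had 0 counts in all libraries, and C8g, which encodes a chain of C8, had 18, 13 and 9 counts in wild type, against 3, 0 and 7 in knockout. Transcripts for the pore were therefore not detectable or at trace level at this depth in both groups.

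The tested genes whose pattern over the 6 libraries was most like that of C3 were Lilr4b, Steap4, Lilrb4a, Nos2 and Mmp13, out of 10212 candidates. Likeness was the root mean square difference of log2 CPM after each gene's mean was subtracted, and it was 0.27 for Lilr4b, 0.511 for Steap4, 0.726 for Lilrb4a, 0.768 for Nos2 and 0.79 for Mmp13, where C3 itself spanned 10.42 between its lowest and highest library. Lilr4b had 1, 2 and 3 counts in wild type, against 3527, 2544 and 2589 in knockout. Likeness over 6 libraries in 2 groups rests almost wholly on the size of the difference between the groups, and all 6 points share the same libraries. Like C3, these 5 genes reached the filter's minimum in knockout libraries only, so a difference in them was built into passing it.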

How the data were processed

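Poly(A) RNA of 3 knockout and 3 wild-type libraries was compared. The deposited table holds raw counts per gene symbol that the authors made, 1 column per library, with 0 columns of other samples. Per the submitters' processing notes, which give no roles, the tools were HTSeq 0.11.2, STAR 2.7.1a, limma 3.48.3, fastp 0.20.0 and edgeR 3.34.0, on GRCm38 (mm10). Which annotation release and strand setting were used for counting is not given in the sources used here.

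Groups and replicate numbers came from the sample titles. Genes were kept by filterByExpr and scaled by TMM. Knockout was tested against wild type by edgeR 4.0.16 (glmQLFit and glmQLFTest, R 4.3.3), with Benjamini-Hochberg adjustment over all 14877 genes kept and a threshold of 0.05. A second call rule tested against a fold of 1.5 (glmTreat). The code was tested on simulated data. Exon lengths, overlaps and shared stretches came from GENCODE M21 (GRCm38), and starts from RefSeq on GRCm38.p6. Named genes are the 9 genes of the set, any gene of the wider complement list and their copies, up to 4 acute phase genes with the smallest adjusted p and the 5 genes most like C3. Members and lists were chosen with earlier results of these data known. The promoter patterns were chosen after the data had been seen, and the ISRE pattern was shortened by its last base after a first search had been run with the longer form. No pair of libraries within a group was alike within sampling noise (chi-square per degree of freedom 3.41 to 48.4). Same-numbered libraries deviated together from their group means (r = 0.443, 0.161 and 0.15 over 14877 genes), so replicate numbers were also fitted as a block. Wild type 3 with knockout 2 (r = 0.189) and wild type 2 with knockout 3 (r = 0.15) were as high as the pairs numbered 2 and 3, so only number 1 stood apart. The DESeq2 1.42.0 alternative changed the test and the scaling together, and each other alternative changed one choice: DESeq2 size factors in edgeR, upper-quartile scaling, no filter, each library left out, both libraries numbered 1 left out, the block, the fold of 1.5 and another gene length.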

Additional observations from a re-analysis of the deposited data

How the results depend on the processing

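The number of genes called fell from 4752 higher and 4773 lower to 2009 and 1957 when the test was against a fold of 1.5, by construction of that test. Among the other complement genes, the 3 lower calls became 0 against a fold of 1.5 in edgeR (1 at an unadjusted p under 0.05), while DESeq2 against no change called 2. Without a filter 6 were called lower, the additional ones being C8g, C9 and Cpn2, and 4 higher, Fcna being added, and among acute phase genes 2 more were called higher, Serpina3f and Serpina3g. Fitting replicate numbers as a block, the other complement genes gave 4 higher and 3 lower, C3ar1 being added, and the block changed no other call among the complement and acute phase genes. It called 5721 genes higher and 5774 lower. Over the 12 alternatives the log2 fold change ran from 10.13 to 10.52 for C3, 4.58 to 5.10 for C4b, 2.85 to 2.97 for C1ra, 2.71 to 2.99 for C1s1 and 0.11 to 0.52 for Serping1. Cd93 passed the threshold without both libraries numbered 1 (edgeR adjusted p = 0.025, range 0.025 to 0.944). The order of the 9 genes by level per length was the same with the longest transcript as length, which leaves shared sequence unaddressed. Counts of Cfb, Cfi, Cd55 and Cd59a were at or below 18 per library, which limits the precision of their values.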

Other observations

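Several acute phase genes, which encode plasma proteins that the liver secretes in inflammation along with complement, also had higher counts in knockout. Of 19 listed genes 6 passed the filter, 5 of them higher and 1 lower, and 8 had 0 counts in all libraries. Over all tested genes 31.9% were called higher and 32.1% lower. Saa3, Hp and Lbp reached the filter's minimum in knockout libraries only, so a difference in them was built into passing it, the count of 5 is partly fixed by the filter, and their values are a description with no test. Cp, which encodes the copper-carrying ferroxidase ceruloplasmin, stood at 2489, 1738 and 1585 counts in wild type and 33891, 24016 and 23647 in knockout (log2 fold change 3.93, SE 0.13, edgeR adjusted p = 4.92e-08). Saa3, a serum amyloid A protein, had 4, 2 and 0 counts against 872, 844 and 728, or 0.0412 ± 0.0393 against 19.6 ± 0.999 CPM (SD, n = 3). Lbp, which binds bacterial lipopolysaccharide, had 1, 1 and 4 counts against 144, 130 and 145 (log2 fold change 6.15, SE 0.33). Hp, the gene of haptoglobin, had 0 counts in wild type and 52, 53 and 46 in knockout, at least 54.4-fold higher if the wild-type group is set to a floor of 3 counts in all. The member that fell was Serpina3n, a protease inhibitor named after its value was seen, with 29, 43 and 39 counts against 11, 14 and 13 (log2 fold change -1.44, SE 0.31, edgeR adjusted p = 0.003). The liver genes Saa1, Orm1, Fga, Crp and Apcs had 0 counts in all libraries.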
